A study of Mus musculus with 8 samples.

Results

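The genes described are 10 receptor tyrosine kinases of kidney tubule repair, Egfr, Erbb2, Met, Axl, Fgfr1, Igf1r, Insr, Pdgfra, Pdgfrb and Flt1. They were chosen by symbol, and all 10 were found, with 1 row each, among the 21879 genes of the deposited table. RNA was sequenced after oligo(dT) selection from TCMK-1 cells, a transformed mouse kidney epithelial cell line, in 2 groups of 4 libraries. One group carried an shRNA against smgGDS and received 20 µM cisplatin. The other carried a control shRNA and received the same 20 µM cisplatin. smgGDS, encoded by Rap1gds1, binds small GTPases and promotes their nucleotide exchange. Cisplatin, a platinum compound, forms crosslinks in DNA and is toxic to tubule cells. Libraries without the drug were not analysed here, so the values concern the knockdown in treated cells. Whether a group's 4 libraries came from separate cultures or clones is not stated. The spread behind each p-value is the one between these samples and may be technical.

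Receptor tyrosine kinases are membrane proteins that bind a growth factor outside the cell, pair up, and phosphorylate one another on tyrosines inside it. Adaptor proteins dock on these tyrosines and pass the signal to Ras, phosphatidylinositol 3-kinase and phospholipase C. In the injured tubule, the receptors for epidermal growth factor and hepatocyte growth factor are known to drive survival and proliferation of the remaining epithelium. The platelet-derived growth factor receptors are best known from the fibroblasts and pericytes around the tubule. Flt1 is best known from endothelium, and Axl from cells that sense dying neighbours.

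Library totals were 12746051 to 14280962 expected counts in the knockdown and 11560977 to 16059158 in the controls. Rap1gds1 was at 2.63 ± 0.19 CPM in the knockdown and 16.2 ± 0.80 CPM in controls (CPM are counts scaled to a common library size, SD, n = 4 each), and the groups did not overlap. Of 11576 tested genes, 20.2% passed edgeR's quasi-likelihood test at an adjusted p under 0.05. That share was 11.1% for genes higher in the knockdown and 9.15% for genes lower. Knockdown replicate 4 stood apart on the first principal component, with a score of -20.9, where the other knockdown libraries scored -9.58 to -8.86 and the controls 8.86 to 16.5. Of 16 kidney tubule markers 8 could be tested. Of these, 1, Aqp1, was called lower (9.15% of all tested genes were) and 7 were not called. The summed level of the 16 was 151 to 160 CPM in the knockdown and 176 to 190 CPM in controls. Most of it was Aqp1, a water channel of the proximal tubule. Aqp1 fell to 126.7 ± 3.63 CPM in the knockdown against 154.7 ± 6.07 CPM in controls (log2 fold change -0.29, SE 0.039, edgeR adjusted p = 3.33e-07). What part this fall of Aqp1 has in the changes of the receptors was not tested. Hnf4a and Umod had no count in any library, and the kidney transcription factor Pax8 was at 9.33 ± 1.19 CPM in the knockdown and 8.97 ± 0.41 CPM in controls.

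Of the 10 receptors, 9 had enough counts to be tested. Axl, Flt1 and Pdgfrb rose in the knockdown, against a background of 11.1% of all tested genes called higher. None was called lower by edgeR with all libraries and TMM scaling (9.15% of all tested genes were). At an unadjusted edgeR p under 0.05 there was 1, Insr, which limma voom called lower, as did edgeR under library-total scaling and without knockdown replicate 3. DESeq2 called 0 lower and gave no adjusted p for Insr. In 4 receptors the groups did not overlap in CPM, upward in Axl, Flt1 and Pdgfrb (11.5% of all tested genes) and downward in Insr (9.61%). All log2 fold changes are knockdown minus control. Their median was 0.12 over the 9 receptors and -0.0033 over all tested genes. Without knockdown replicate 4 the same count of 3 receptors rose and their median was again 0.12.

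The levels of the receptors spanned a wide range. Levels are compared between genes in the authors' FPKM, which divides counts by transcript length. Axl led by a wide margin, at 119 ± 1.51 FPKM in the knockdown and 113 ± 3.61 FPKM in controls (SD, n = 4 each, as for all levels that follow). Fgfr1 came next at 13.7 ± 0.85 FPKM in the knockdown and 13.2 ± 0.37 FPKM in controls, so the level of Axl was 8.68 times that of Fgfr1 in the knockdown and 8.59 times in controls. Egfr followed at 4.34 ± 0.69 FPKM in the knockdown and 3.97 ± 0.40 FPKM in controls.

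The middle of the order was held by Flt1, at 2.98 ± 0.19 FPKM in the knockdown and 2.19 ± 0.25 FPKM in controls, Pdgfrb, at 2.47 ± 0.14 FPKM in the knockdown and 2.04 ± 0.37 FPKM in controls, and Erbb2, at 1.53 ± 0.24 FPKM in the knockdown and 1.54 ± 0.12 FPKM in controls. In controls the libraries of Flt1 and Pdgfrb overlapped, as did those of Pdgfrb and Erbb2. In the knockdown no neighbouring pair overlapped. Met, the hepatocyte growth factor receptor, lay at 0.76 ± 0.12 FPKM in the knockdown and 0.71 ± 0.057 FPKM in controls. Igf1r was at 0.35 ± 0.076 FPKM in the knockdown and 0.35 ± 0.075 FPKM in controls. Insr was at 0.15 ± 0.059 FPKM in the knockdown and 0.25 ± 0.017 FPKM in controls, and Pdgfra was barely detected, at most 0.04 FPKM in any knockdown library and 0.1 FPKM in any control. Both groups thus had the same order of the 10 receptors. The order of the middle genes depended on the length used. With CPM per kilobase of the longest GENCODE transcript, 6 of the 10 kept their rank in controls, and Pdgfrb (1.80) and Erbb2 (1.5) came before Egfr (1.17) and Flt1 (1.15).

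**Figure D1:**
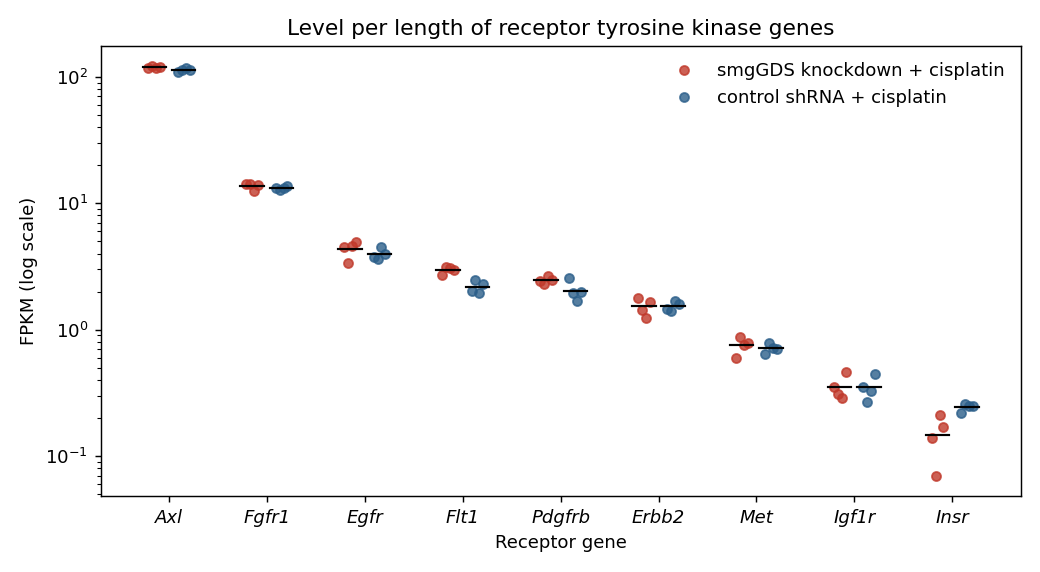
Deposited FPKM (log axis) of 9 receptor genes in the 4 knockdown libraries (left, red) and the 4 control libraries (right, blue), with a bar at each mean. Axl lies above 100 FPKM and Insr below 0.3 FPKM, and Pdgfra, listed at 0 in some libraries, is not drawn.

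Axl, on chromosome 7 (25756500 to 25788924, GRCm38.p6), encodes the receptor for the vitamin K-dependent ligand Gas6. It had 493, 502, 491 and 502 CPM in knockdown replicates 1 to 4, against 438, 448, 478 and 460 CPM in control replicates 1 to 4. Every knockdown library lay above every control, and the knockdown libraries spread less than the controls. The mean difference was 8.96% (log2 fold change 0.12, SE 0.03), which passed with an edgeR adjusted p of 0.00194. The call depended on how libraries were scaled. With counts scaled by library total the log2 fold change was 0.068 (edgeR adjusted p = 0.0766), and on log2(FPKM + 0.5) it was 0.071 (limma adjusted p = 0.28). Over its alternatives the adjusted p ran from 0.000237 to 0.28.

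The ligands of the Axl receptor family and the sister receptors of Axl did not pass the test or had too few counts for it. Gas6 was at 1.33 ± 0.26 CPM in the knockdown and 1.19 ± 0.14 CPM in controls (log2 fold change 0.16, SE 0.30, edgeR adjusted p = 0.76). Pros1, the other ligand of this receptor family, was at 7.79 ± 1.72 CPM in the knockdown and 7.73 ± 1.67 CPM in controls (0.023, SE 0.16, edgeR adjusted p = 0.946). Of the sister receptors, Tyro3 was at 14.7 ± 1.78 CPM in the knockdown and 16.2 ± 1.51 CPM in controls (-0.14, SE 0.098, edgeR adjusted p = 0.336). Mertk had 2 counts in all knockdown libraries together and 3 in all controls.

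Flt1, on chromosome 5 (147561604 to 147726438), encodes VEGF receptor 1, which binds VEGF-A, VEGF-B and placental growth factor and also exists as a shorter secreted form. It showed the largest change among the receptors that passed. It had 11.8, 11.6, 11.5 and 13.3 CPM in knockdown replicates 1 to 4, against 7.57, 8.75, 6.98 and 8.47 CPM in control replicates 1 to 4. The groups were well separated, and knockdown replicate 4 was the highest of the 8 libraries. Flt1 stood at 151% of control (95% interval 129% to 177%, log2 fold change 0.60, SE 0.11, edgeR adjusted p = 0.0001). This call was kept in all 18 alternatives, including the fit without knockdown replicate 4. The estimate was smallest on log2(FPKM + 0.5), at 0.37. On this scale the pseudocount understates changes of low genes. It also lacks TMM scaling, and the median log2 fold change over all tested genes was -0.051 on it. The mean transcript length implied by the FPKM of Flt1 was 3.98 kb in the knockdown and 3.7 kb in controls. How much of the difference from CPM each of these accounts for was not tested.

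The ligands of Flt1 did not pass the test. Vegfa was at 152 ± 3.96 CPM in the knockdown and 146 ± 6.92 CPM in controls (log2 fold change 0.06, SE 0.038, edgeR adjusted p = 0.296). Placental growth factor, Pgf, was at 15.1 ± 1.32 CPM in the knockdown and 15.9 ± 1.21 CPM in controls. The VEGF coreceptor Nrp1 rose, to 21.1 ± 1.35 CPM in the knockdown against 16.9 ± 1.85 CPM in controls (0.33, SE 0.088, edgeR adjusted p = 0.0052). Kdr, VEGF receptor 2 and the main signalling receptor of endothelium, had 11 counts over all knockdown libraries and 12 over all controls. Of 10 endothelial markers 1 was tested, Egfl7, which encodes a secreted protein of vessels. It was at 6.14 ± 1.53 CPM in the knockdown and 6.06 ± 0.90 CPM in controls (log2 fold change 0.012, edgeR adjusted p = 0.976). Tie1 had no count in any library, and Cdh5, Emcn, Tek and Vwf had at most 3 counts in any library. The summed level of the 10 markers, most of it Egfl7, was 5.28 to 8.80 CPM in the knockdown and 6.71 to 8.17 CPM in controls.

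Genes whose profile over the 8 libraries lay closest to that of Flt1 were Slc4a7, a bicarbonate cotransporter, Ppfibp1, a liprin scaffold protein, and Mical2, an enzyme that oxidises actin. Their root mean square differences from Flt1, in log2 CPM centred on the control mean, were 0.0771, 0.0815 and 0.0884. Each rose by a similar amount, with log2 fold changes of 0.52 (SE 0.092), 0.54 (SE 0.064) and 0.60 (SE 0.076). They were picked for likeness in these libraries, so their direction adds no support.

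Pdgfrb encodes the beta receptor for platelet-derived growth factor, and the gene lies on chromosome 18. It had 11.6, 11.9, 13.9 and 12.7 CPM in knockdown replicates 1 to 4, against 11.1, 9.41, 8.24 and 10.3 CPM in control replicates 1 to 4. The lowest knockdown library was only just above control replicate 1. Pdgfrb stood at 128% of control (95% interval 110% to 149%, log2 fold change 0.36, SE 0.11, edgeR adjusted p = 0.0174). This p was 0.0746 without knockdown replicate 3, 0.0857 without control replicate 3 and 0.147 by limma on log2(FPKM + 0.5). The call was thus lost without either of those 2 libraries. It was also lost on FPKM, a setting that differs in test and scaling as well as in unit.

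Pdgfra, the alpha receptor, had 0, 2, 3 and 0 counts in knockdown replicates 1 to 4 and 2, 8, 9 and 0 counts in control replicates 1 to 4, too few to test. A count of 3 corresponds to 0.187 to 0.26 CPM per library, which covers counting error only. Among the ligands, Pdgfa fell. It had 13.4, 12.3, 13.4 and 13.4 CPM in the knockdown libraries, against 19.4, 19.5, 17.9 and 16.1 CPM in controls (log2 fold change -0.48, SE 0.093, edgeR adjusted p = 0.000129). All 4 knockdown libraries were below all 4 controls. Pdgfb was at 5.31 ± 2.35 CPM in the knockdown and 3.78 ± 0.65 CPM in controls (0.48, SE 0.30, edgeR adjusted p = 0.311), with counts that were not all whole, and Pdgfc at 1.83 ± 0.30 CPM in the knockdown and 1.59 ± 0.35 CPM in controls.

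Some markers of fibroblasts and pericytes changed along with Pdgfrb. Of 10 such genes 8 were tested, 4 rose and 1 fell, against 11.1% higher and 9.15% lower over all tested genes. The collagen genes Col1a1, Col1a2 and Col3a1 rose by 0.23, 0.43 and 0.54 on the log2 scale, the proteoglycan gene Dcn rose by 0.49, and the pericyte receptor gene Notch3 fell by 0.52. Postn, Cspg4 and Des did not pass, with log2 fold changes of 0.14, 0.37 and -0.62 (edgeR adjusted p = 0.607, 0.305 and 0.146). Lum and Rgs5 had at most 5 counts in any library. The summed level of the 10 markers was 401 to 462 CPM in the knockdown and 339 to 365 CPM in controls. Dcn lost its call without knockdown replicate 4 or without control replicate 2. The RNA came from the TCMK-1 epithelial line, and whether the cultures held any fibroblasts or pericytes was not tested. Nor was any link of these markers to the change of Pdgfrb. In bulk RNA a change in the number of cells of a type and a change in RNA per cell cannot be told apart.

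Egfr, on chromosome 11 (16752203 to 16913907), encodes the epidermal growth factor receptor. It had 14.6, 10.5, 14.0 and 15.7 CPM in knockdown replicates 1 to 4, against 11.6, 11.3, 13.4 and 11.5 CPM in control replicates 1 to 4. Knockdown replicates 1, 3 and 4 exceeded all controls, while knockdown replicate 2 was below all of them. The log2 fold change of 0.20 (SE 0.11, 95% interval -0.019 to 0.42) did not pass (edgeR adjusted p = 0.202). Without knockdown replicate 2 it was 0.31 and passed (edgeR adjusted p = 0.0363), and without knockdown replicate 4 it was 0.13 (edgeR adjusted p = 0.508). Erbb2, the partner receptor that binds no ligand of its own (chromosome 11, 98412484 to 98437716), was at 7.79 ± 1.21 CPM in the knockdown and 7.53 ± 0.69 CPM in controls (0.058, SE 0.13, 95% interval -0.21 to 0.32, edgeR adjusted p = 0.809). Its sign turned on FPKM and without knockdown replicate 1.

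Hbegf, which encodes the heparin-binding ligand of Egfr, rose slightly. It had 585, 563, 589 and 584 CPM in the knockdown libraries, against 548, 529, 530 and 527 CPM in controls (log2 fold change 0.12, SE 0.028, edgeR adjusted p = 0.00151). Here the groups did not overlap, but under library-total scaling and on FPKM the call was lost. Other ligands of the family did not pass. Ereg, epiregulin, was at 97.7 ± 1.97 CPM in the knockdown and 97.7 ± 5.96 CPM in controls, and Areg, amphiregulin, at 19.7 ± 0.62 CPM in the knockdown and 20.8 ± 0.39 CPM in controls. Egf itself had 16 counts over all knockdown libraries and 23 over all controls. Errfi1, an intracellular inhibitor of the Egfr kinase, was at 228 ± 8.13 CPM in the knockdown and 233 ± 5.4 CPM in controls (-0.028, SE 0.033, edgeR adjusted p = 0.612).

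Met, on chromosome 6 (17463349 to 17573980), had 4.07 to 5.89 CPM in the knockdown and 4.18 to 5.01 CPM in controls. The groups overlapped (log2 fold change 0.16, SE 0.16, 95% interval -0.16 to 0.48, edgeR adjusted p = 0.538). The estimate was 0.26 without knockdown replicate 1 and 0.085 without knockdown replicate 2. Its ligand was barely detected, with 1 count of Hgf over all knockdown libraries and 2 over all controls. Fgfr1, on chromosome 8 (25518759 to 25575718), had 62.9, 62.2, 54.8 and 60.6 CPM in knockdown replicates 1 to 4, against 55.7, 52.7, 56.5 and 56.0 CPM in control replicates 1 to 4. Only knockdown replicate 3 fell within the range of the controls. Its log2 fold change of 0.12 (SE 0.053) did not pass (edgeR adjusted p = 0.0931), and without knockdown replicate 3 it was 0.17 with an adjusted p of 0.0292 by edgeR. The estimate for Fgfr1 was as large as that for Axl, with a wider error. Exons of Fgfr1 overlap the antisense gene Gm16159, and those of Erbb2 overlap Mien1 on the other strand. Since no source used here states the strand setting, such reads cannot be told apart.

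Insr (chromosome 8, 3150922 to 3279649) and Igf1r (chromosome 7, 67952257 to 68233668) encode the insulin receptor and its close relative for insulin-like growth factors. Insr had 19, 9, 25 and 20 counts in knockdown replicates 1 to 4, against 33, 39, 34 and 27 counts in control replicates 1 to 4. As CPM these were 1.36, 0.707, 2.00 and 1.6 in the knockdown and 2.03, 2.35, 2.37 and 2.31 in controls. The groups did not overlap, though knockdown replicate 3 and control replicate 1 were nearly equal. The log2 fold change of -0.68 (SE 0.27, 95% interval -1.22 to -0.13) gave an unadjusted edgeR p of 0.0157 and an adjusted p of 0.069. It passed by limma voom (adjusted p = 0.0461), by edgeR under library-total scaling (adjusted p = 0.0409) and by edgeR without knockdown replicate 3 (adjusted p = 0.0326). Without knockdown replicate 2, the lowest library, the log2 fold change was -0.46 (edgeR adjusted p = 0.258), and on log2(FPKM + 0.5) it was -0.21 (limma adjusted p = 0.0841). The pseudocount of 0.5 exceeds the FPKM of Insr in every library, at most 0.26, and so understates its change.

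Igf1r had 3.69 to 5.91 CPM in the knockdown and 3.26 to 5.56 CPM in controls, overlapping widely (0.082, SE 0.18, 95% interval -0.28 to 0.45, edgeR adjusted p = 0.804). Its sign turned without knockdown replicate 4 or control replicate 2. Of its ligands, Igf2 rose, with 5.78, 7.31, 6.17 and 9.19 CPM in the knockdown libraries against 4.06, 4.28, 4.68 and 4.36 CPM in controls. The groups did not overlap (log2 fold change 0.71, SE 0.15, edgeR adjusted p = 0.000592), though on FPKM the call was lost. Igf1 was at 1.51 ± 0.60 CPM in the knockdown and 1.03 ± 0.41 CPM in controls (0.58, SE 0.33, edgeR adjusted p = 0.232). The insulin receptor substrate gene Irs2 fell, to 31.0 ± 2.47 CPM in the knockdown against 37.6 ± 2.36 CPM in controls (-0.28, SE 0.068, edgeR adjusted p = 0.00197). Irs1 was at 13.1 ± 0.50 CPM in the knockdown and 11.5 ± 1.44 CPM in controls (0.20, SE 0.10, edgeR adjusted p = 0.188).

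**Figure D2:**
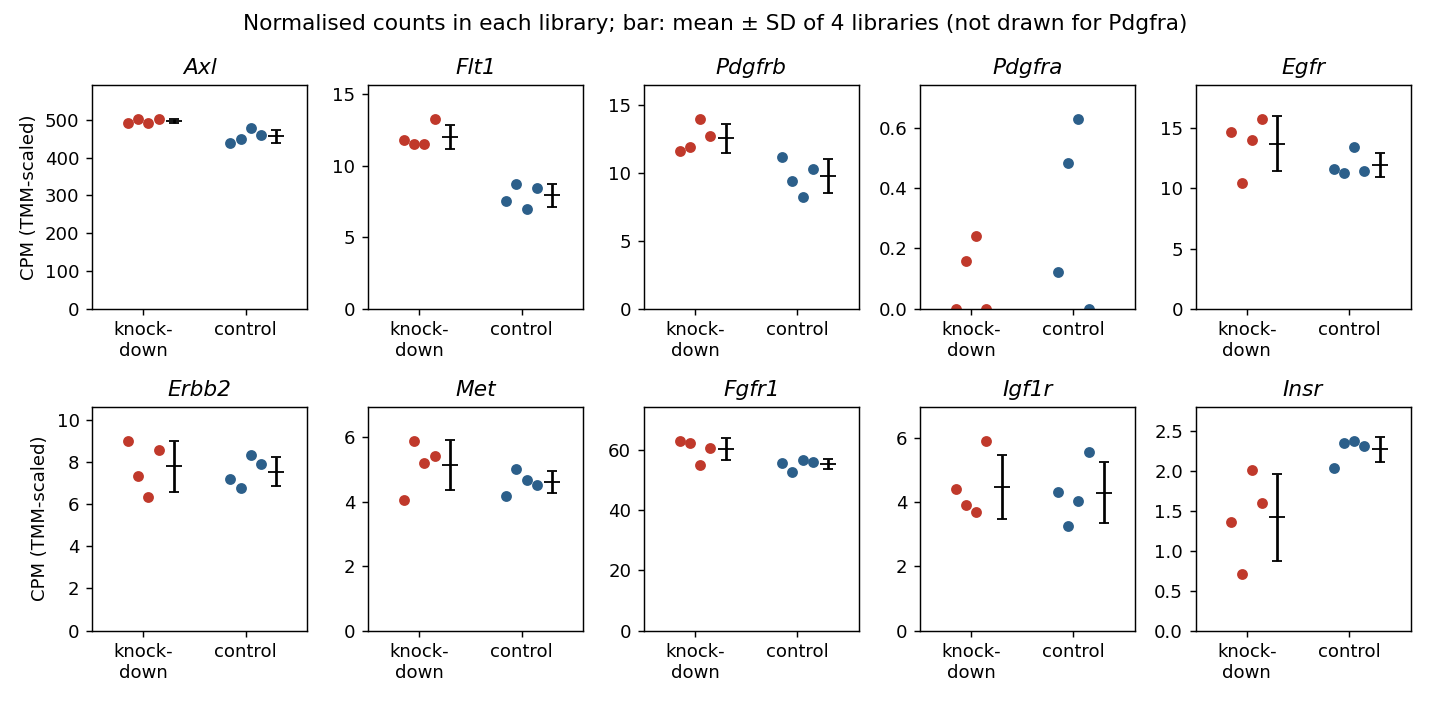
CPM of each receptor gene, 1 point per library, in the 4 knockdown libraries (left, red) and the 4 control libraries (right, blue), with the mean ± SD beside them except for Pdgfra. Each panel has its own axis from 0, and the groups are separated in Axl, Flt1, Pdgfrb and Insr.

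**Figure D3:**
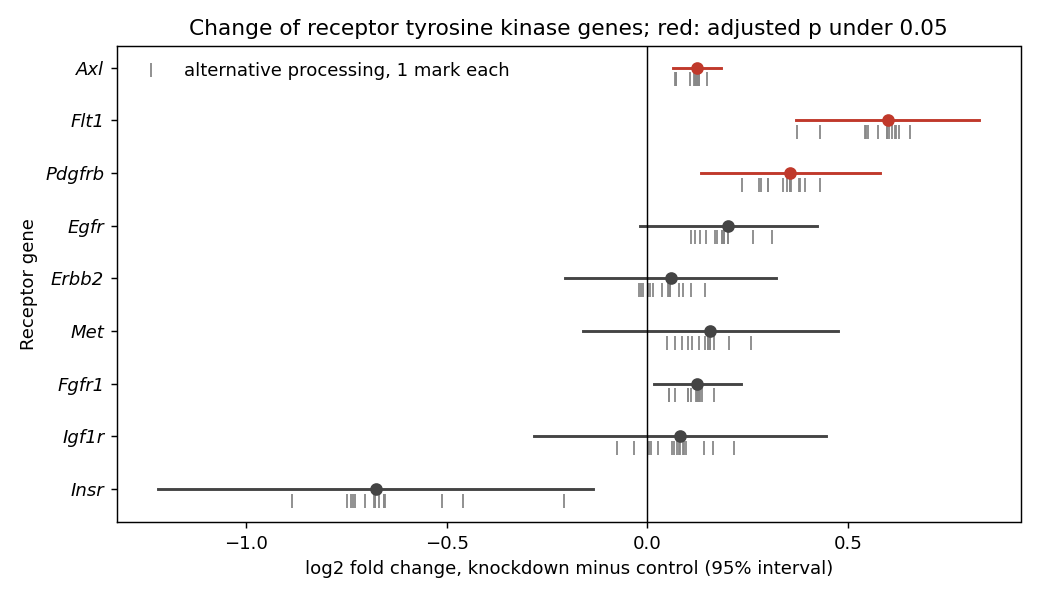
Log2 fold change of the 9 tested receptors, knockdown minus control, with 95% intervals. Grey marks under each gene are the estimates under the alternative processing settings, and red genes had an edgeR adjusted p under 0.05. Flt1 at 0.60 lies farthest to the right and Insr at -0.68 farthest to the left.

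The deposited FPKM did not follow the counts at a fixed length in every receptor. Of the receptors with at least 1 FPKM in every library, Flt1 and Pdgfrb varied most. The ratio of CPM, scaled by library total, to FPKM gives the length in kilobases that the FPKM implies. For Axl it was 4.09 to 4.11 kb, and for Erbb2 4.98 to 5.01 kb, over the 8 libraries. For Flt1 it was 4.25, 3.62, 3.68 and 4.36 kb in knockdown replicates 1 to 4, against 3.82, 3.63, 3.62 and 3.72 kb in control replicates 1 to 4. Knockdown replicates 1 and 4 were thus long, and the other knockdown libraries lay in the range of the controls. The largest value was 1.21 times the smallest. A ratio at least that large was found in 3.61% of 9030 tested genes with an FPKM of at least 1 in every library, whose median ratio was 1.01. For Pdgfrb it was 4.65, 5.07, 5.15 and 5.03 kb in the knockdown and 4.44, 5.01, 4.96 and 5.27 kb in controls, a ratio of 1.19. Replicate 1 of each group was the shortest, and 4.17% of those genes had at least that ratio. Egfr ran from 2.92 to 3.22 kb, a ratio of 1.1 that 10.5% of those genes reached. Fgfr1 ran from 4.17 to 4.38 kb, a ratio of 1.05 that 21.1% reached. Neither a difference between the groups in implied length nor its cause was tested.

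**Figure D4:**
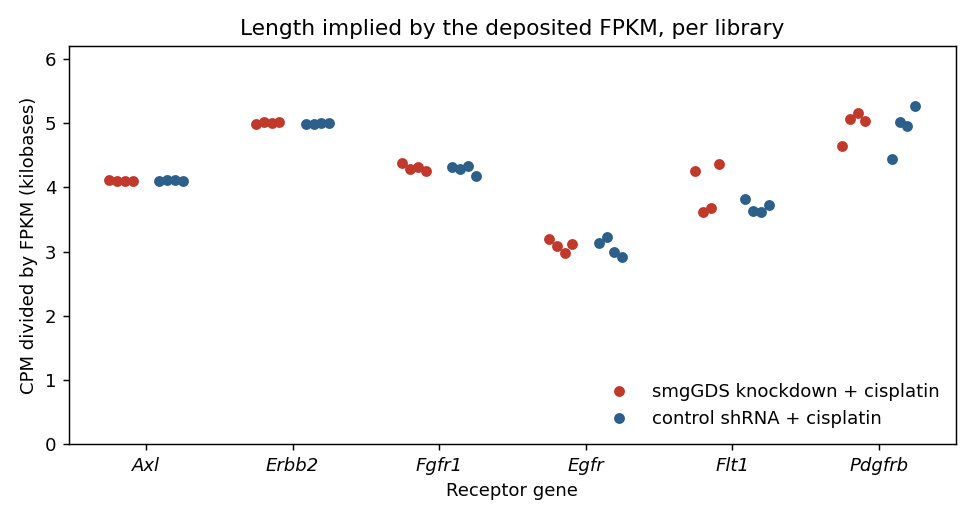
CPM by library total divided by the deposited FPKM, in kilobases, for the 6 receptors with at least 1 FPKM in every library, in the knockdown (left, red) and control (right, blue) libraries. The points of Axl and Erbb2 coincide, while those of Flt1 run from 3.62 to 4.36 kb and those of Pdgfrb from 4.44 to 5.27 kb.

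Promoters of Axl and Flt1, receptors that rose, are shown because they differ in base composition and in the motifs they hold. Each run is the 250 bases before the RefSeq start, on the minus strand of GRCm38.p6, with motif matches in capitals. Axl is chr7:25788734-25788983 and Flt1 is chr5:147726012-147726261. Both windows reach into the span given above for the gene, which runs past that start.
Axl: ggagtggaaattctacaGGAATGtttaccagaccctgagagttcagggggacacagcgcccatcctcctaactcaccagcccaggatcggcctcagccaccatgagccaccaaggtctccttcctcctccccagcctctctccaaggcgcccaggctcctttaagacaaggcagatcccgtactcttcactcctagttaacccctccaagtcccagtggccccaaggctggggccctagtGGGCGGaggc
Flt1: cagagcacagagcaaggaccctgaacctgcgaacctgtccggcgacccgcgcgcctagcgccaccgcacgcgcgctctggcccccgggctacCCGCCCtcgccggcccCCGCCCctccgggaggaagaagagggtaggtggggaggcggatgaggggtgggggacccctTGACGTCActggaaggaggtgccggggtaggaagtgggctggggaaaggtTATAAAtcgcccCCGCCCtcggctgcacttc

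Axl held 1 GC box (GGGCGG, in 32.7% of all 32851 windows of this length) and 1 TEAD motif (GGAATG, 12.6%), with 60% G or C and 5 CpG dinucleotides. Flt1 held 3 GC boxes, 1 TATA box (TATAAA, 12.4%) and 1 cyclic AMP response element (TGACGTCA, 1.55%), with 70.4% G or C and 23 CpG. Both strands were searched and these matches do not overlap. Of 7 receptors with a window used, 5 held a GC box and 2 a TEAD motif, in Axl and Erbb2. All 7 windows, at 54.4% to 77.6% G or C, were above the median of 52.4% over all windows. Whether GC boxes were more frequent than this composition gives was not tested. A CCAAT box (CCAAT, 33.8%) was found in Erbb2, and an AP-1 motif (TGANTCA, 6.75%) and an E-box (CACGTG, 6.02%) in Met. The ATF4 amino acid response motif (TGATGNAA, 3.45%) and the SRF CArG box (1.47%) were found in none of the 7. Windows of Fgfr1, Insr and Pdgfrb were not used here.

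Beyond the 10 receptors, 15 of the 44 other receptor tyrosine kinases were tested, and 2 rose and 2 fell (against 11.1% higher and 9.15% lower over all tested genes), with a median log2 fold change of -0.14. Ryk, a Wnt receptor with an inactive kinase domain, rose to 67.5 ± 1.46 CPM in the knockdown against 49.3 ± 2.66 CPM in controls (0.46, SE 0.052, edgeR adjusted p = 9.79e-09). The collagen receptor Ddr2 rose to 79.0 ± 4.88 CPM in the knockdown against 62.5 ± 3.46 CPM in controls (0.34, SE 0.051, edgeR adjusted p = 3.03e-06). The ephrin receptors Ephb3, at 10.1 ± 0.88 CPM in the knockdown and 16.6 ± 1.65 CPM in controls, and Epha2, at 231 ± 7.80 CPM in the knockdown and 269 ± 11 CPM in controls, fell by 0.73 and 0.22 on the log2 scale. All 4 had groups that did not overlap and passed in each of 18 alternatives. The collagen receptor Ddr1 was at 85.2 ± 2.4 CPM in the knockdown and 91.9 ± 3.55 CPM in controls and did not pass (-0.11, edgeR adjusted p = 0.0809).

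Of 31 ligand genes 18 were tested, and 2 rose, Hbegf and Igf2, while 1, Pdgfa, fell (median 0.09). Over all tested genes 11.1% were higher and 9.15% lower. Of 31 genes for ligand processing, binding proteins and coreceptors 25 were tested, with 6 rises and 3 falls, set beside the same 11.1% and 9.15% (median 0.029, and -0.027 under library-total scaling). The heparan sulfate proteoglycan Sdc2 rose by 0.46 (SE 0.047, edgeR adjusted p = 6.87e-08), while the glypican Gpc1, also a carrier of heparan sulfate, fell by 0.18 on the log2 scale (SE 0.036). Fgfrl1, a decoy receptor for fibroblast growth factors, rose by 0.25 (SE 0.059), and Plaur, the urokinase receptor, rose by 0.12 (SE 0.03). Besides Nrp1, the remaining calls, named after their values were seen, were rises of Adam10 and Igfbp2 and falls of Igfbp6 and Furin. Without knockdown replicate 4 this list had 6 rises and 1 fall. Adam10, Igfbp2, Igfbp6 and Furin each lost their call when some single library was left out.

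Inside the cell, the adaptors and proximal effectors had 1 rise and 3 falls among 23 tested genes, against 11.1% higher and 9.15% lower over all tested genes (median -0.064). The tyrosine phosphatase Ptpn11, which relays signals to Ras, rose by 0.20 (SE 0.038). The adaptors Crkl and Shc1 fell by 0.29 (SE 0.05) and 0.16 (SE 0.042) on the log2 scale, as did Irs2. The same counts held without knockdown replicate 4. Grb2, which links most of these receptors to Ras, was at 25.1 ± 1.52 CPM in the knockdown and 27.3 ± 1.53 CPM in controls and did not pass (-0.13, edgeR adjusted p = 0.244).

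Among 27 tested negative regulators and endocytic sorting genes, 4 rose and 1 fell, against 11.1% higher and 9.15% lower over all tested genes (median 0.014, and -0.042 under library-total scaling). The phosphatase Ptpn12 rose by 0.39 (SE 0.069), with counts that were not all whole. Sh3kbp1, an endocytic adaptor that binds Cbl, rose by 0.37 (SE 0.07), and Grb10, an inhibitor of insulin receptor signalling, rose by 0.22 (SE 0.054). Stam2 rose by 0.17 (SE 0.061) and Hgs, its partner in sorting receptors to the lysosome, fell by 0.12 on the log2 scale (SE 0.034). Stam2 lost its call without knockdown replicate 2, 3 or 4 or control replicate 3 or 4. Without knockdown replicate 4 the counts were 3 and 1, and without control replicate 2 they were 4 and 2. On FPKM, besides Hbegf and Igf2, the calls of Ptpn11, Grb10, Fgfrl1, Plaur, Stam2, Adam10, Igfbp6 and Furin were lost. With a pseudocount of 0.1 that of Sh3kbp1 was lost too. Plaur, Stam2 and Adam10 also lost their calls under library-total scaling, and Stam2 and Furin lost theirs with DESeq2.

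**Figure D5:**
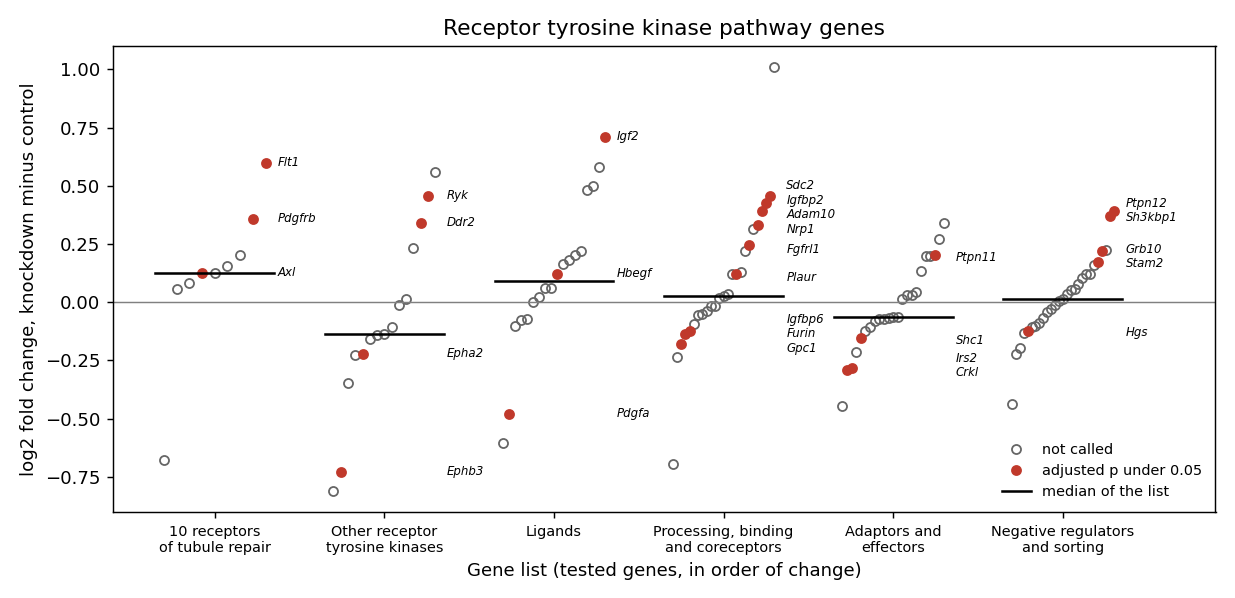
Log2 fold change, knockdown minus control, of every tested gene in the 10 receptors and 5 pathway lists, with called genes filled and named beside the column and a bar at each list's median. Called genes lie on both sides of 0 in each of the 5 pathway lists, and above 0 among the 10 receptors.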

How the data were processed

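Gene expression was measured by RNA-seq in 8 libraries, and the deposited table gives expected counts and FPKM per gene, per the file headers. The submitters' processing notes name RSEM, edgeR, DESeq2, StringTie 1.3.1, HISAT2 2.4, Bowtie2 2.2.8 and fastp 0.18.0, with no role or order, and build GRCm38.p6. No source used here gives the annotation release. The authors' FPKM were used for levels between genes and are rounded to 2 decimals, which is coarse for Insr, Igf1r and Pdgfra.

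Deposited expected counts were rounded to whole numbers. None of the 10 receptors had a count that was not whole (tolerance 1e-09). Counts were tested with edgeR 4.0.16 in R 4.3.3 (default expression filter, TMM factors, robust quasi-likelihood F-test on group, two-sided), with Benjamini-Hochberg adjustment over 11576 genes and a threshold of 0.05. CPM use the TMM-scaled totals of tested genes. Each standard error follows from the estimate and its F statistic, and intervals cover 95%. Replicates of a group differed by more than sampling noise (chi-square per degree of freedom 1.94 to 3.94). The procedure was tested on simulated data, where 22 of 48 genes with a log2 change of 0.3 in either direction were called. At 0.6 it called 36 of 50 and at 2 it called 50 of 50. Small changes can thus go uncalled.

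The receptors and all gene lists were chosen with earlier results of these data known. From each pathway list, up to 5 called genes with the smallest adjusted p were named, and for the called receptor with the smallest adjusted p the 3 most similar genes. Ligands of the families of the 10 and their sister receptors were also named. Alternatives were other size factors, library-total scaling, DESeq2 1.42.0, limma 3.58.1 (voom, and log2 FPKM with pseudocounts of 0.5 and 0.1), a threshold of 0.01, other expression filters, a replicate block, and leaving out single libraries. Promoter sequences came from a RefSeq table of GRCm38.p6. The cyclic AMP motif was added after the sequence was seen.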

Additional observations from a re-analysis of the deposited data

Results flagged for a closer look

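In 18 groups of 4 libraries examined, 1 library lay far from the other 3 in 2 groups, where chance gives about 1 in 20. Flt1 in knockdown replicate 4 was at 13.3 CPM, above 11.5 to 11.8 CPM in the other knockdown libraries. Egfr in control replicate 3 was at 13.4 CPM, above 11.3 to 11.6 CPM in the other controls.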

How the results depend on the processing

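Direction was kept in all alternatives that gave a value for Axl, Flt1, Pdgfrb, Egfr, Met, Fgfr1 and Insr. On log2(FPKM + 0.5) and log2(FPKM + 0.1), limma called 1284 and 1167 genes and 1 receptor higher in each, and at a threshold of 0.01 edgeR called 1405 genes against 2344. Insr made the count of receptors called lower 1 under library-total scaling and with limma voom. Leaving out 1 library at a time gave 0 to 1 receptors lower and 2 to 4 higher. The ranking of levels was shared by 6 receptors when another length was used. The sign of Igf1r turned to -0.075 without knockdown replicate 4 and -0.035 without control replicate 2, in a range up to 0.21 when single libraries were left out. That of Erbb2 turned to -0.011 and -0.015 on FPKM with pseudocounts of 0.5 and 0.1, and to -0.021 without knockdown replicate 1, in a range up to 0.14. The cause of these changes was not tested. Deviations of same-numbered libraries correlated at 0.056, 0.083, -0.036 and 0.056 for replicates 1 to 4. Those of differently numbered libraries correlated at -0.062 to 0.038, so all same-numbered pairs except replicate 3 lay above that range. Any pairing by replicate number was thus weak, and whether there was one is not settled by these values. With a replicate block 2660 genes and the same number of receptors, 3, were called. Depth limits Insr, with 9 to 39 counts per library, and Pdgfra could not be tested.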

Other observations

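Most other receptor tyrosine kinases were barely detected in either group. Of 44, 29 fell under the expression filter, with at most 14 counts in any library. Among these, Erbb4, Kit, Tie1, Epha3, Epha5, Ephb1 and Ros1 had no count in any of the 8 libraries. For 1 library taken alone, a count of 0 allows up to about 3 counts, or 0.187 to 0.26 CPM. The 8 libraries together set a lower limit than this. Of the ligands 13 could not be tested, and Nrg3 and Fgf5 had no count in any library. The fibroblast growth factor receptors other than Fgfr1 were unequal. Fgfr3 was at 13.1 ± 0.64 CPM in the knockdown and 13.1 ± 0.93 CPM in controls (SD, n = 4 each, log2 fold change -0.013, edgeR adjusted p = 0.952), while Fgfr2 had 36 counts over all knockdown libraries and 37 over all controls, and Fgfr4 had 21 over all knockdown libraries and 22 over all controls.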
